A study of Arabidopsis thaliana with 6 samples.

Results

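The genes described here are the 55 lipid, wax and alpha/beta-hydrolase genes among the 1537 genes that the authors listed as differing between 2 Arabidopsis thaliana genotypes. They were chosen by description alone: a gene was taken when its short description named a lipase, lipid, fatty acid, desaturase, ketoacyl or long-chain enzyme, GDSL protein, wax, cutin, oleosin, acyl carrier or alpha/beta-hydrolase, and cytochrome P450 genes were left out. RNA was sequenced from whole seedlings of the Columbia ecotype, aged 10 days, raised under long days on plates of Murashige and Skoog medium. The wild type (WT, Col-0) and the BIC1-YFP line have 3 libraries each, called biological replicates in the labels. BIC1-YFP is BIC1, a small nuclear inhibitor of the blue-light receptor cryptochrome, joined to a yellow fluorescent protein. The promoter of that transgene and the number of independent lines are not stated by the labels. The series asks how BIC1 acts in brassinosteroid signalling and growth.

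Plants make fatty acids in the plastid. Some stay there and enter the galactolipids and phosphatidylglycerol of the thylakoid membranes, where desaturases add double bonds. Others leave as acyl-CoA and are elongated in the endoplasmic reticulum into the waxes, cutin and suberin that coat the epidermis and the root, and lipid transfer proteins carry hydrophobic molecules in the cell wall. Oleosins coat the oil bodies of seeds, lipases release the fatty acids of stored oil and of membranes, and the alpha/beta-hydrolase fold is shared by lipases, esterases and several hormone receptors. Elongating organs lay down new membrane and cuticle as they grow.

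Values are normalized units of read abundance per gene and library, as the authors deposited them. How they were scaled is not stated. Cufflinks, the tool named in the processing notes, divides by gene length, but among values under 15 the share within 0.05 of a whole number was 95.9% and 100% in the wild-type and BIC1-YFP libraries numbered 1, which a division by length would not leave. The other libraries gave 6.09% to 17.4%, and their scale is taken to be the same. Levels are compared between libraries and not between genes, and the number of reads per library is unknown. Every listed gene had already been selected as different in these 6 libraries: the largest adjusted p in the authors' deposited table is 0.0499. The first principal component over the listed genes (67.5% of the variance) separated the genotypes, with wild-type replicate 3 at -14.2 against -29.6 and -28.2 for wild-type replicates 1 and 2. Genotypes were compared with limma on log2(value + 1) over the 1531 genes that reached 1 unit in 3 libraries or more, and a gene was called at a Benjamini-Hochberg adjusted p under 0.05 over all of these. "Rose" and "fell" are used for called genes only, the figure after ± is the SD of 3 libraries, and an x-fold difference is a ratio of mean abundances. In whole seedlings, fewer cells of a type and less RNA per cell cannot be told apart.

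All 55 genes passed the limit on low values. A total of 43 were called, of which 16 rose and 27 fell in BIC1-YFP, and 12 were not called. Over all tested genes 76.6% were called, 37.6% higher and 39.1% lower, so the overall share of calls among the lipid and hydrolase genes (78.2%) is that of the list they come from. Their mean was higher in BIC1-YFP for 22 genes (40.0%) and lower for 33, whereas 52.6% of all listed genes had a higher mean. The median log2 fold change was -0.56, against 0.56 over all tested genes. As the smallest absolute log2 fold change in the authors' deposited table is 0.59, either median lies at the edge of the gap around 0 and shows only which direction is in the majority. The median size of the change, whatever its direction, was 0.90 in both sets. For 43 of the 55 genes the 2 genotypes did not overlap, 17 being higher and 26 lower in BIC1-YFP. Over all listed genes 75.9% did not overlap, 37.0% higher and 38.9% lower. With 1 library left out at a time, the rising calls numbered 5 without BIC1-YFP replicate 2, 9 without BIC1-YFP replicate 3 and 10 without wild-type replicate 1. The falling calls numbered 11 without BIC1-YFP replicate 2, 14 without wild-type replicate 1, and 17 without replicate 2 of the wild type or replicate 3 of BIC1-YFP. In every leave-out 15 of the 43 calls held, beside 371 of 1173 over all listed genes.

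**Figure D1:**
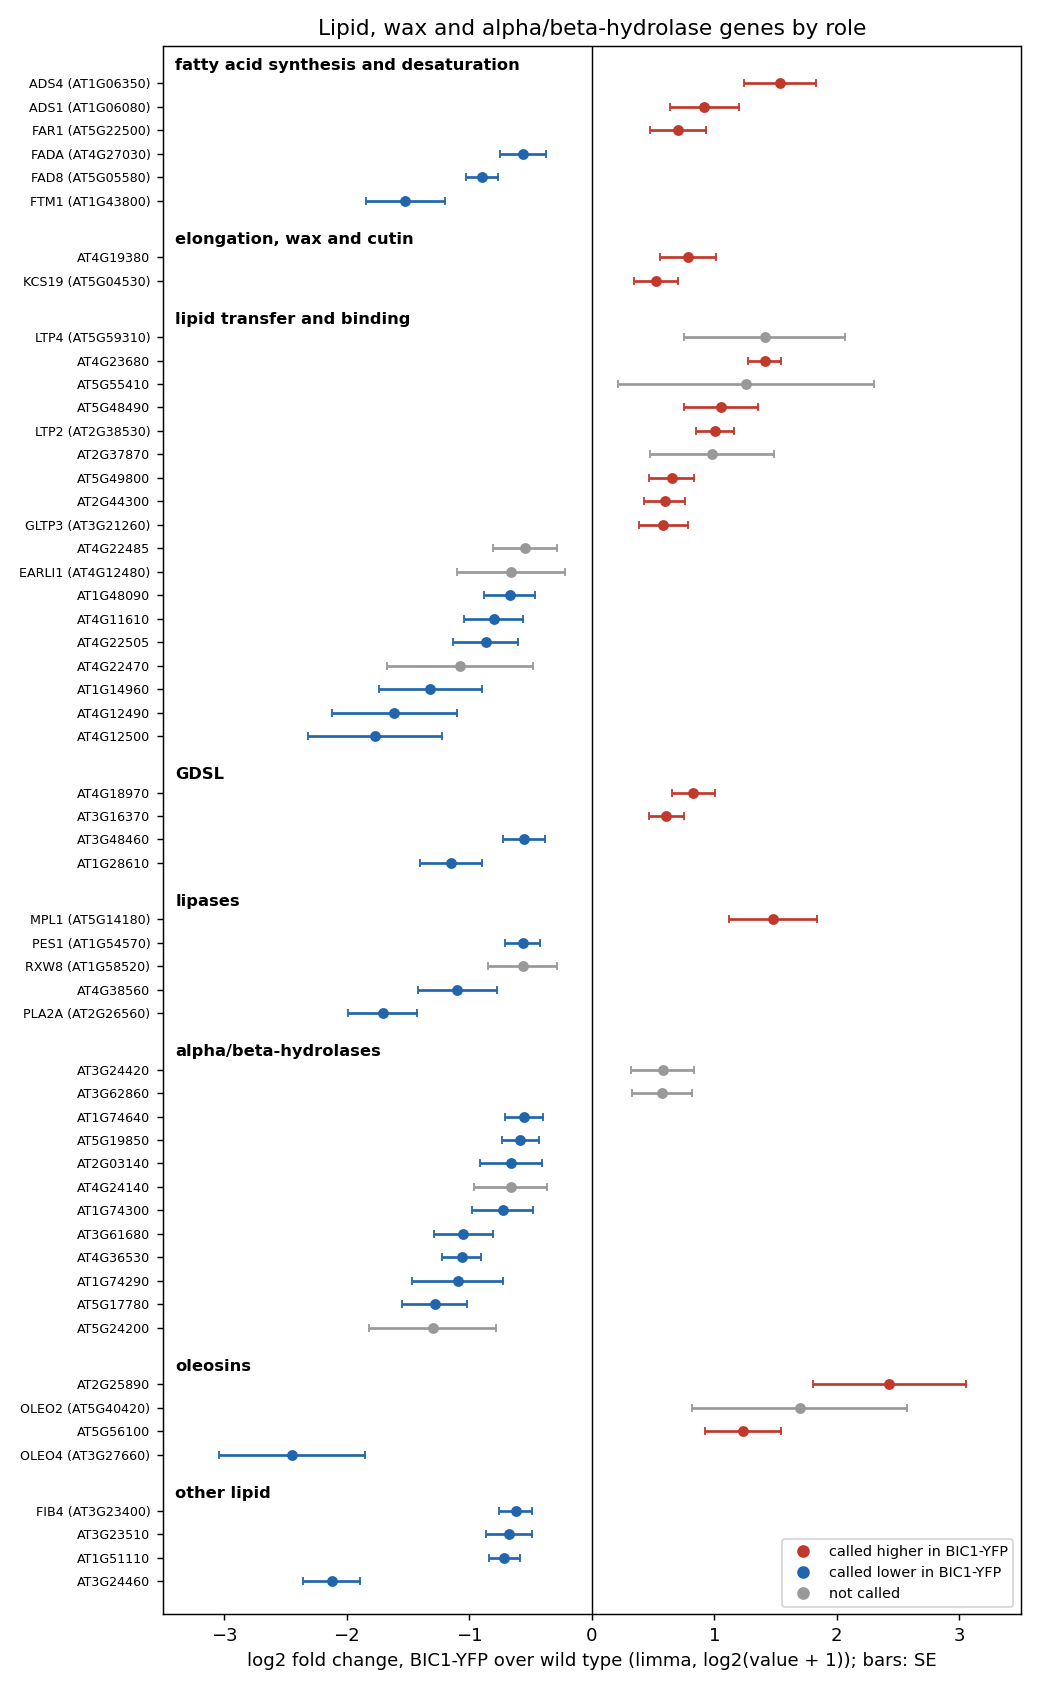
Log2 fold change of BIC1-YFP over wild type for the 55 genes, grouped by role, with limma's standard error as bars and colours for genes called higher, called lower and not called. The hydrolases and the lipids outside the other groups lie mostly left of 0, whereas lipid transfer genes and desaturases lie on both sides.

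Fatty acid synthesis and desaturation was represented by 6 genes, all called, and they divided evenly: 3 rose and 3 fell. Of all tested genes 76.6% were called, 37.6% higher and 39.1% lower. FAD8 (AT5G05580), the plastid omega-3 desaturase that makes trienoic fatty acids and is known for its response to temperature, stood at 2113, 1885 and 1924 units in the wild type and at 1121, 988 and 1072 in BIC1-YFP. Every BIC1-YFP library lay below every wild-type library, a 1.86-fold lower mean (limma log2 fold change -0.90 with SE 0.13 and adjusted p = 0.0047). FADA (AT4G27030), which puts the trans double bond into the fatty acid of plastid phosphatidylglycerol, stood at 867, 718 and 809 units against 509, 464 and 662. The gap between its genotypes was narrow, and limma gave a log2 fold change of -0.56 (SE 0.19, adjusted p = 0.031). FTM1 (AT1G43800), of the stearoyl-acyl carrier protein desaturase family that makes the first double bond, fell from 316, 379 and 692 units to 123, 151 and 185. Wild-type replicate 3 was by far its highest library, but all 3 wild-type libraries exceeded all BIC1-YFP libraries (3.02-fold lower, limma log2 fold change -1.52 with SE 0.32 and adjusted p = 0.012).

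ADS1 (AT1G06080) and ADS4 (AT1G06350), related delta 9 and acyl desaturase genes, rose. ADS4 stood at 55.2, 61.7 and 35.6 units in the wild type and at 159, 176 and 111 in BIC1-YFP (2.93-fold, limma log2 fold change 1.54 with SE 0.29 and adjusted p = 0.0089). ADS1 stood at 127, 222 and 190 units against 250.3, 398 and 368 (1.89-fold, limma log2 fold change 0.92 with SE 0.28 and adjusted p = 0.026). Neither gene's genotypes overlapped. The coding sequences of the pair are 66.4% identical, and their longest identical run is 15 bases. FAR1 (AT5G22500), which reduces fatty acyl chains to the primary alcohols found in suberin, stood at 195, 188 and 167 units against 251, 262 and 407. It rose 1.67-fold (limma adjusted p = 0.030), with BIC1-YFP replicate 3 standing well above all other libraries. FAD8, FTM1 and ADS4 kept their calls without any 1 library. ADS1 was no longer called when wild-type replicate 1 or either of BIC1-YFP replicates 2 and 3 was left out (limma adjusted p between 0.065 and 0.081). FADA lost it in 5 of the 6 leave-outs, all but that of BIC1-YFP replicate 3 (0.054 to 0.099), and FAR1 in all but that of BIC1-YFP replicate 1 (0.059 to 0.076).

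**Figure D2:**
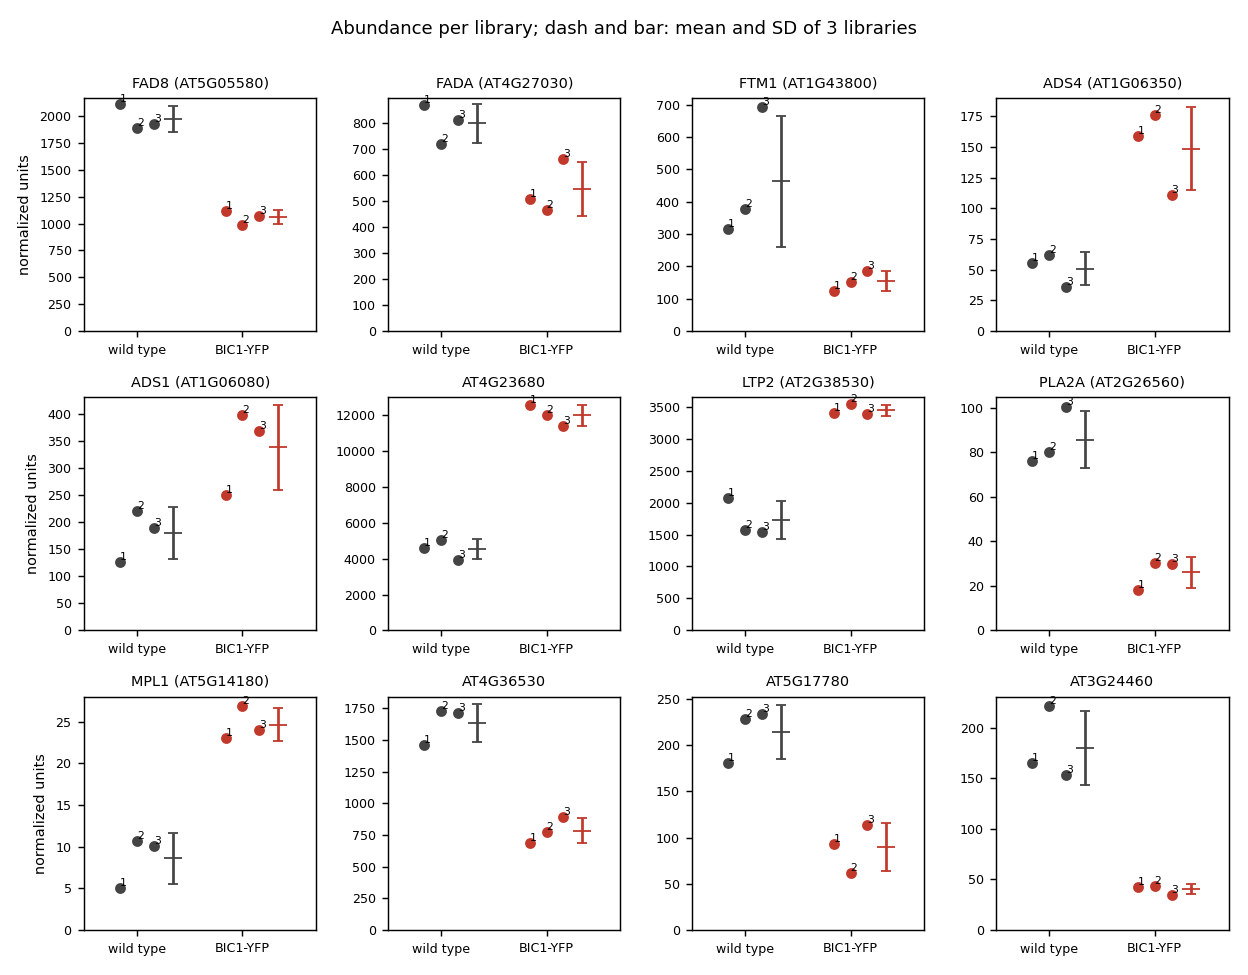
Normalized abundance in each library (numbered points) with the mean and SD of 3 libraries for 12 lipid and hydrolase genes, in wild type (grey) and BIC1-YFP (red), each axis starting at 0. The 12 genes are a selection, and the genotypes do not overlap in any of the panels. They did not overlap for 43 of all 55 genes and for 75.9% of all listed genes. FAD8 and AT4G36530 lie lower in BIC1-YFP, and AT4G23680 and LTP2 lie higher.

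Chain elongation, wax and cutin contributed 2 genes, both called higher in BIC1-YFP, where 37.6% of all tested genes were. KCS19 (AT5G04530), of the 3-ketoacyl-CoA synthase family whose enzymes set the length of wax and storage chains, rose from 1153, 1012 and 1316 units to 1498, 1509 and 2011 (1.44-fold, limma log2 fold change 0.52 with SE 0.18 and adjusted p = 0.035). AT4G19380, a long-chain fatty alcohol dehydrogenase family gene, rose from 201, 146 and 126 units to 274, 232 and 300 (1.71-fold, limma log2 fold change 0.79 with SE 0.23 and adjusted p = 0.024). In both genes the lowest BIC1-YFP library lay just above the highest wild-type library. The call of KCS19 was lost on leaving out replicate 1 or 2 of the wild type or replicate 2 or 3 of BIC1-YFP (limma adjusted p between 0.067 and 0.11). AT4G19380 lost it without wild-type replicate 2 or any 1 BIC1-YFP library (0.051 to 0.064). With median-ratio scaling or without the variance trend only AT4G19380 of the pair was called.

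The wider wax and cutin pathway was mostly outside the table. Of 42 genes of wax and cutin synthesis, export and regulation, 3 were listed, none of them chosen by description. MYB16 (AT5G15310), a transcription factor of epidermal cuticle formation, rose from 217.8 ± 24.0 to 332 ± 71.2 units, and CYP96A15 (AT1G57750), which oxidizes wax alkanes, from at most 0.0664 units in any wild-type library to 12.0, 6.55 and 1.18 in BIC1-YFP. CYP86A4 (AT1G01600), a fatty acid hydroxylase of cutin synthesis, fell from 167.5 ± 8.76 to 108 ± 9.31 units. The limma adjusted p was 0.039 for MYB16, 0.024 for CYP96A15 and 0.022 for CYP86A4. MYB16 and CYP86A4 kept their calls in 2 of the 6 leave-outs, those of wild-type replicate 3 and BIC1-YFP replicate 1 (highest adjusted p 0.117 and 0.059). CYP96A15 lost its call on leaving out replicate 1 or 2 of the wild type (highest adjusted p 0.059), and could not be tested without any 1 BIC1-YFP library, as too few libraries then reached 1 unit. Of 21 genes of fatty acid synthesis and desaturation, FAD8 and FADA were the 2 in the table, and none of 13 galactolipid and phosphate-starvation lipid genes was listed. A gene outside the table is not shown to be unchanged.

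Lipid transfer and binding was the largest group, with 18 genes, of which 6 rose, 6 fell and 6 were not called. The share called was 66.7%, against 76.6% of all tested genes. AT4G23680, of the family annotated as polyketide cyclase and lipid transport, stood at 4625, 5050 and 3923 units in the wild type and at 12560, 12013 and 11410 in BIC1-YFP. Its libraries were tightly grouped within each genotype and far apart between them (2.65-fold, limma log2 fold change 1.41 with SE 0.13 and adjusted p = 0.0015). AT1G14960, of the same family and with a coding sequence 74.4% identical to that of AT4G23680, moved the other way, from 228, 219.9 and 101 units to 74.1, 99.0 and 43.3 (2.54-fold lower, limma log2 fold change -1.32 with SE 0.42 and adjusted p = 0.028). The third gene of that annotation, AT5G49800, rose 1.57-fold. AT4G23680 kept its call without any 1 library, whereas AT1G14960 lost it on leaving out replicate 1 or 2 of the wild type or replicate 1 or 3 of BIC1-YFP (limma adjusted p between 0.051 and 0.081). AT5G49800 lost it without replicate 2 of the wild type or replicate 2 or 3 of BIC1-YFP (0.051 to 0.060).

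Of the lipid transfer proteins in the narrow sense, LTP2 (AT2G38530), a cell wall protein that binds lipids, rose from 2070, 1572 and 1544 units to 3399, 3540 and 3386 (1.99-fold, limma log2 fold change 1.01 with SE 0.15 and adjusted p = 0.0048) and kept its call without any 1 library. AT5G48490, of the bifunctional inhibitor and lipid transfer superfamily, stood at 199.7, 307 and 427 units against 502, 630.4 and 743. The genotypes did not overlap although both spread widely (2.01-fold in the means, limma adjusted p of 0.023). AT2G44300, annotated as anchored to the plasma membrane, rose 1.52-fold, and the glycolipid transfer gene GLTP3 (AT3G21260) 1.49-fold. Leaving out replicate 1 of the wild type or replicate 2 of BIC1-YFP ended the calls of these last 3 genes. For AT5G48490 so did leaving out replicate 2 of the wild type or replicate 3 of BIC1-YFP, and for GLTP3 any library but replicate 3 of the wild type (limma adjusted p between 0.052 and 0.094 over the 3 genes). LTP4 (AT5G59310), known for its response to water loss and abscisic acid, was not called at 7.02, 1.62 and 2.35 units against 5.01, 21.6 and 8.76 (limma, adjusted p = 0.079).

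On chromosome 4, 3 genes of this superfamily lie close together: AT4G12480 (EARLI1), AT4G12490 and AT4G12500, with 1 protein-coding gene between each and the next. EARLI1 encodes a proline-rich cell wall protein linked to antifungal defence and cold. The copies are alike, so reads from one may have been counted for another. AT4G12490 and AT4G12500 have coding sequences 90.3% identical, and EARLI1 is 81.4% and 83.3% identical to them. The longest run of bases that AT4G12490 and AT4G12500 share without a difference is 87 bases, and that of EARLI1 and AT4G12490 is 44. Both are shown because a read lying wholly inside one cannot be assigned to either gene. A longer read reaches bases that differ, and the read length is not given here. The runs are in lower case, on the coding strand, from the RefSeq annotation of TAIR10.1.
AT4G12490 and AT4G12500: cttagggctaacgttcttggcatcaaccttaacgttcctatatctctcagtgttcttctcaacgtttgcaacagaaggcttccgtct
AT4G12480 and AT4G12490: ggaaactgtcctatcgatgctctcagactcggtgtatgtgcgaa

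All 3 neighbours had a lower mean in BIC1-YFP, and their wild-type libraries were far apart. AT4G12500 stood at 163, 38.4 and 54.9 units in the wild type and at 19.0, 28.2 and 14.7 in BIC1-YFP (4.15-fold lower, limma log2 fold change -1.77 with SE 0.55 and adjusted p = 0.026). AT4G12490 stood at 419, 108 and 240.2 units against 64.1, 52.9 and 109, a 3.40-fold lower mean with overlap of wild-type replicate 2 and BIC1-YFP replicate 3 (limma, adjusted p = 0.028). EARLI1 stood at 3692, 1067 and 2652 units against 1405, 1107 and 1706 and was not called (limma log2 fold change -0.66 with SE 0.44 and adjusted p = 0.18). Wild-type replicate 1 was the highest and wild-type replicate 2 the lowest wild-type library for each of the 3 genes. Without wild-type replicate 1, AT4G12500 had a log2 fold change of -1.17 (limma, adjusted p = 0.051) and AT4G12490 one of -1.15 (0.070). AT4G12500 also lost its call without any 1 BIC1-YFP library (0.054 to 0.069), and AT4G12490 without BIC1-YFP replicate 1 or 2 (0.061 and 0.083).

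**Figure D3:**
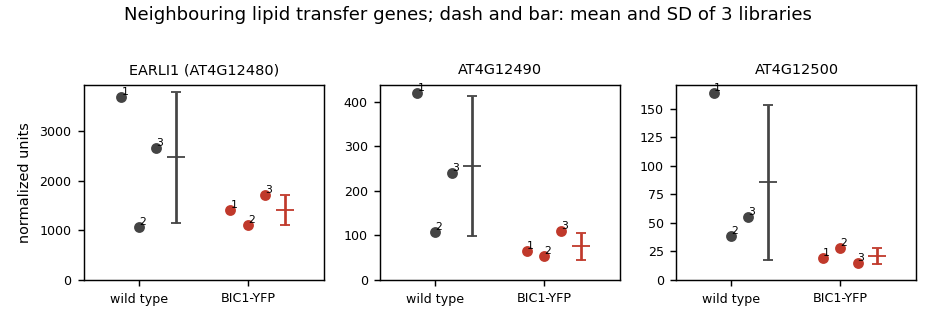
Normalized abundance in each library (numbered points), with the mean and SD of 3 libraries, for the neighbouring genes EARLI1, AT4G12490 and AT4G12500, axes starting at or below 0. Wild-type replicate 1 is the highest library in all 3 panels and wild-type replicate 2 lies near or within the BIC1-YFP libraries for EARLI1 and AT4G12490.

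A second group on chromosome 4, AT4G22470, AT4G22485 and AT4G22505, also had lower means. Only AT4G22505 was called, at 609, 789 and 567 units against 484, 254 and 365 (1.78-fold lower in the means, limma adjusted p of 0.026). AT4G22485 stood at 1086 ± 260.4 against 748.5 ± 204 units (limma, adjusted p = 0.083) and AT4G22470 at 100.4 ± 74.5 against 41.2 ± 17.8 (0.12). Their coding sequences are 41.8% to 55.9% identical, with no shared run over 17 bases. The 2 other genes that fell were AT4G11610, with a calcium- and lipid-binding domain (1.77-fold lower), and AT1G48090, a calcium-dependent lipid-binding family gene (1.59-fold lower). AT4G22505, AT4G11610 and AT1G48090 were each uncalled on leaving out replicate 1 or 2 of the wild type or replicate 2 or 3 of BIC1-YFP (limma adjusted p between 0.056 and 0.086). Without wild-type replicate 1, no lipid transfer gene was called lower, and without BIC1-YFP replicate 2 only 2 were called higher and 1 lower.

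The 4 GDSL lipases, a plant family of esterases that includes cutin-forming enzymes, were all called, 2 higher and 2 lower. Of all tested genes 76.6% were called. AT3G16370, annotated to the apoplast, rose from 4859, 3784 and 4274 units to 6363, 5970 and 7346 (1.52-fold, limma log2 fold change 0.61 with SE 0.15 and adjusted p = 0.016). AT4G18970 rose from 708, 981 and 814 units to 1298, 1499 and 1628 (1.77-fold, limma log2 fold change 0.83 with SE 0.18 and adjusted p = 0.012). AT1G28610 fell from 367, 357 and 248 units to 141, 182 and 115 (2.22-fold lower, limma log2 fold change -1.15 with SE 0.25 and adjusted p = 0.013). AT3G48460 fell from 372, 305 and 293 units to 218.3, 214 and 223 (1.48-fold lower in the means, limma adjusted p of 0.026). None of the 4 overlapped between genotypes, where 75.9% of all listed genes did not. The first 3 kept their calls without any 1 library. AT3G48460 was called only in the leave-out of wild-type replicate 3 (limma adjusted p between 0.053 and 0.075 in the others).

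Among 5 other lipase genes, 1 rose, 3 fell and 1 was not called (80.0% called, against 76.6% of all tested genes). PLA2A (AT2G26560), a patatin-like lipid acyl hydrolase that pathogens induce, stood at 76.2, 80.3 and 100.4 units in the wild type and at 18.0, 30.1 and 29.9 in BIC1-YFP. The genotypes were well apart, with a 3.29-fold lower mean (limma log2 fold change -1.71 with SE 0.28 and adjusted p = 0.0061), and the call held without any 1 library. MPL1 (AT5G14180), a lipase induced by aphid feeding, went the other way, from 5.03, 10.6 and 10.1 units to 23.0, 26.9 and 24.0 (2.87-fold, limma log2 fold change 1.48 with SE 0.36 and adjusted p = 0.016). PES1 (AT1G54570), a plastoglobule enzyme that esterifies phytol from broken-down chlorophyll, fell from 580, 550.1 and 571 units to 365, 388 and 396 (1.48-fold lower in the means, limma adjusted p of 0.018). AT4G38560, a phospholipase-like gene of the PEARLI 4 family, fell 2.15-fold. MPL1 and PES1 lost their calls without BIC1-YFP replicate 2 (limma, adjusted p of 0.054 and 0.055), and AT4G38560 without that library or wild-type replicate 1 or 2 (0.052 to 0.054). RXW8 (AT1G58520) is a lipase by its short description only, since its full description gives a membrane protein domain of unknown function. It stood at 504.7 ± 159 against 331 ± 57.5 units and was not called (limma, adjusted p = 0.096).

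Of the 12 alpha/beta-hydrolases, 8 fell, none rose and 4 were not called. The share called was 66.7%, below the 76.6% of all tested genes, of which 37.6% were called higher and 39.1% lower. AT4G36530, annotated to the chloroplast, stood at 1460, 1728 and 1717 units in the wild type and at 689, 777 and 888 in BIC1-YFP (2.08-fold lower, limma log2 fold change -1.06 with SE 0.16 and adjusted p = 0.0048). Another hydrolase, AT5G19850, fell from 686, 706 and 764 units to 431, 490.3 and 519 (limma log2 fold change -0.58, adjusted p = 0.019). Both genes showed a clear gap between the genotypes. AT3G61680, annotated as a triglyceride lipase of the chloroplast, fell from 102, 122 and 80.2 units to 47.1, 54.9 and 42.0 (2.11-fold lower, limma log2 fold change -1.05 with SE 0.24 and adjusted p = 0.015). AT5G17780 fell from 181, 229 and 234 units to 93.1, 62.1 and 113 (2.39-fold lower, limma log2 fold change -1.28 with SE 0.27 and adjusted p = 0.011). AT4G36530, AT3G61680 and AT5G17780 kept their calls without any 1 library, while AT5G19850 was uncalled on leaving out replicate 2 of either genotype (the higher limma adjusted p was 0.056).

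Neighbouring genes on chromosome 1, AT1G74290 and AT1G74300, have coding sequences 82.1% identical and share a run of 78 bases, so their counts may not be separate. That run, in lower case on the coding strand of TAIR10.1, is given because reads inside it fit both genes.
AT1G74290 and AT1G74300: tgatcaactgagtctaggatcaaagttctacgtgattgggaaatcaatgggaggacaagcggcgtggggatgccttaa
AT1G74290 fell from 27.1, 22.7 and 13.2 units to 7.01, 9.99 and 10.0 (2.33-fold lower in the means, limma adjusted p of 0.033), and AT1G74300 from 149.5, 112 and 91.2 to 60.1, 78.0 and 70.5 (1.69-fold lower, 0.034). Each kept its call only in the leave-out of wild-type replicate 3 (limma adjusted p between 0.065 and 0.10 in the others). AT1G74640, a thylakoid-annotated gene, fell 1.46-fold. AT2G03140 fell from 579, 597 and 379 units to 414, 305 and 263, with overlap of wild-type replicate 3 and BIC1-YFP replicate 1 (limma adjusted p = 0.048). It was not called with median-ratio scaling (0.051) or without the variance trend (0.064). AT1G74640 was uncalled on leaving out replicate 1 or 2 of either genotype (0.052 to 0.062), and AT2G03140 without replicate 1 or 2 of the wild type or replicate 2 or 3 of BIC1-YFP (0.12 to 0.13).

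The 2 hydrolases with a higher mean in BIC1-YFP were not called. AT3G24420 stood at 128, 181 and 151 units against 164, 257 and 277 (1.52-fold in the means, limma adjusted p of 0.071), and AT3G62860 at 157, 159 and 187 against 210.3, 209 and 347 (1.53-fold, 0.065). AT3G62860 did not overlap between the genotypes, but BIC1-YFP replicate 3 stood alone. Also without a call were AT4G24140 (281.7 ± 78.7 against 177 ± 45.8 units, 0.072) and AT5G24200 (13.8 ± 6.48 against 4.91 ± 2.20, 0.052), both with lower means. Of 11 hydrolases that act as hormone receptors or methyl esterases or are close relatives of these, AT3G24420 and MES17 (AT3G10870), a methyl esterase of auxin, were in the table. MES17 rose from 115, 78.8 and 81.6 units to 151, 156 and 132 (limma adjusted p = 0.030). Its call held in 1 of the 6 leave-outs, that of wild-type replicate 1 (highest adjusted p 0.085). The falling hydrolase calls numbered 3 without BIC1-YFP replicate 2, 4 without wild-type replicate 1 or 2, and 5 without BIC1-YFP replicate 1 or 3.

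Oleosins, structural proteins of oil bodies, numbered 4, of which 2 rose, 1 fell and 1 was not called. The glycine-rich oleosin gene AT5G56100 stood at 188, 243 and 365 units in the wild type and at 445, 622 and 793 in BIC1-YFP (2.34-fold, limma log2 fold change 1.24 with SE 0.31 and adjusted p = 0.018). OLEO4 (AT3G27660), a seed oleosin, fell from 26.1, 23.7 and 14.2 units to 1.00, 2.56 and 7.82 (limma log2 fold change -2.45 with SE 0.59 and adjusted p = 0.016). AT2G25890, an oleosin annotated to flower organs, rose from 1.01, 2.51 and 1.28 units to 7.01, 31.1 and 8.79 (limma log2 fold change 2.43 with SE 0.62 and adjusted p = 0.018). OLEO2 (AT5G40420), the other seed oleosin, stood at 7.03, 14.3 and 1.37 units against 10.0, 61.7 and 13.3 and was not called (limma, adjusted p = 0.10). OLEO2 and OLEO4 have coding sequences 64.4% identical with no shared run over 17 bases, and their means differed in opposite directions. Without BIC1-YFP replicate 2, none of the 3 oleosin calls held, and the limma adjusted p was 0.051 for OLEO4 and 0.054 for both AT5G56100 and AT2G25890. The log2 fold change of AT2G25890 was then 1.81.

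BIC1-YFP replicate 2 had at least 2 times the value of both other BIC1-YFP libraries for 4 of the 55 genes: OLEO2, AT2G25890, LTP4 and the lipid transfer gene AT5G55410 (5.02, 6.09 and 1.33 units against 4.01, 59.2 and 3.52; limma, adjusted p = 0.27). The share was 7.27%, against 2.93% of all listed genes for the same library. Wild-type replicate 1 stood above both other wild-type libraries in the same way for 3 genes, LTP4, AT4G12500 and AT4G22470 (5.45%, against 1.76% of all listed genes). In the remaining libraries the share was below that of the list. It was 1.82% against 2.99% for wild-type replicate 2 and 0.00% against 5.47% for wild-type replicate 3. For BIC1-YFP replicates 1 and 3 it was 0.00% against 1.30% and 1.82% against 4.49%. Seed genes were also high in BIC1-YFP replicate 2. Of 16 seed genes, 5 were in the table, 2 of them the oleosins OLEO2 and OLEO4, and the 5 summed to 243 units in BIC1-YFP replicate 2, to 43.1 and 67.4 in the other BIC1-YFP libraries and to 27.3 to 57.0 in the wild type. The storage protein gene CRA1 (AT5G44120) stood at 83.6 units there and at 0.219 to 6.94 in the other libraries; the peroxiredoxin gene PER1 (AT1G48130) stood at 68.9 and GEA6 (AT2G40170), a late embryogenesis gene, at 26.2. The part of seed-stage RNA in the oleosin and lipid transfer results was not tested. OLEO4 did not share the pattern, being at 2.56 units in BIC1-YFP replicate 2.

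**Figure D4:**
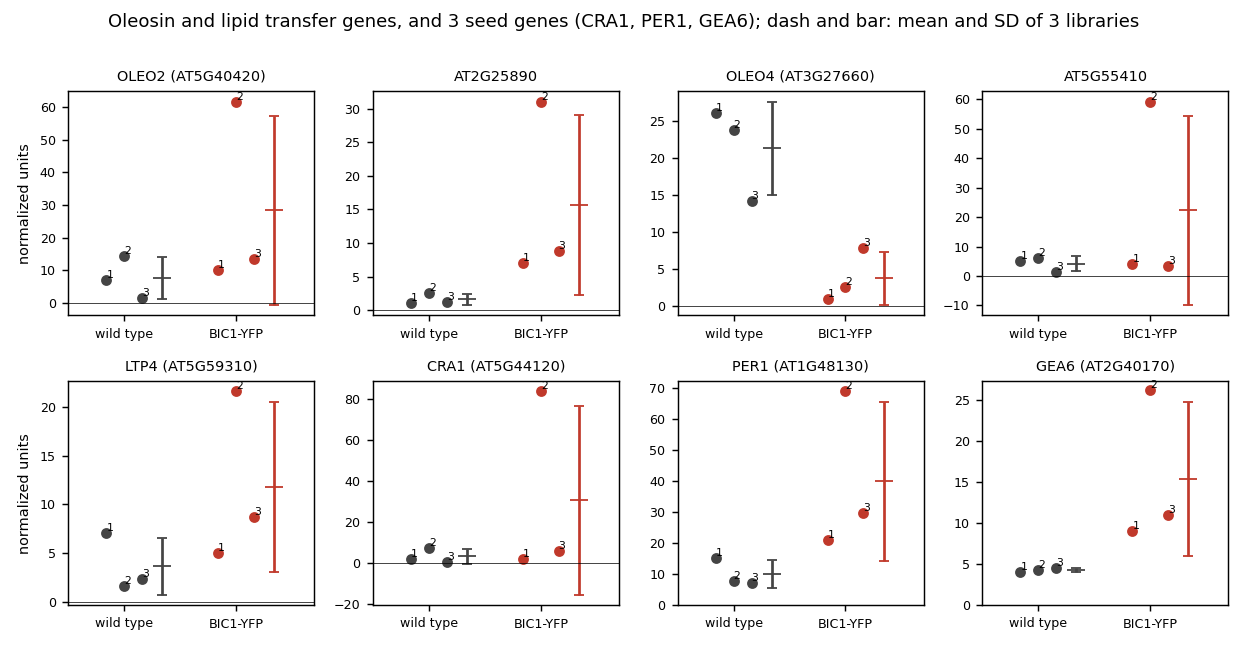
Normalized abundance in each library (numbered points), with the mean and SD of 3 libraries, for OLEO2, AT2G25890, OLEO4, AT5G55410 and LTP4 and for the seed genes CRA1, PER1 and GEA6; bars that reach below 0 come from an SD larger than the mean. BIC1-YFP replicate 2 is the highest library in every panel except that of OLEO4, where the wild-type libraries are highest.

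The 4 remaining lipid genes all fell, where 39.1% of all tested genes were called lower. AT3G24460, of the Serinc family of membrane proteins annotated to serine and sphingolipid synthesis, stood at 165, 221 and 153 units in the wild type and at 42.1, 43.7 and 34.5 in BIC1-YFP. The genotypes were far apart (4.48-fold lower, limma log2 fold change -2.13 with SE 0.23 and adjusted p = 0.0020). FIB4 (AT3G23400), a fibrillin of plastoglobules, fell from 2932, 2690 and 2698 units to 1711, 1693 and 2023 (1.53-fold lower, limma log2 fold change -0.62 with SE 0.13 and adjusted p = 0.013). A second fibrillin family gene, AT1G51110, fell from 2111, 2188 and 2022 units to 1393, 1210 and 1257 (1.64-fold lower, limma log2 fold change -0.71 with SE 0.13 and adjusted p = 0.0077). AT3G23510, a cyclopropane-fatty-acyl-phospholipid synthase by annotation, fell by 0.68 on the log2 scale and was uncalled on leaving out replicate 2 of either genotype or replicate 3 of BIC1-YFP (limma adjusted p between 0.057 and 0.060). The other 3 kept theirs without any 1 library. Among 24 genes of oil storage and fatty acid breakdown, OLEO2, OLEO4, the caleosin RD20 (AT2G33380, 53.3 ± 32.5 against 98.7 ± 26.8 units, not called) and the peroxisomal thiolase KAT5 (AT5G48880) were listed. KAT5, which cleaves acyl chains in beta-oxidation, fell from 1837 ± 178 to 669.4 ± 199.6 units (2.74-fold lower in the means, limma adjusted p of 0.0063).

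The descriptions also give a location for many genes, which the choice of genes did not use. Of the 55, 9 were annotated to the chloroplast or its parts, and 8 of these fell: FAD8, FADA, PES1, AT1G51110, AT1G48090, AT1G74640, AT3G61680 and AT4G36530. The exception was FAR1, which rose. Over all listed genes with such an annotation, 90 of 154 were called lower and 33 higher, and 66.2% had a lower mean. The 17 genes annotated to the endomembrane system showed no such direction, with 4 called higher, 5 lower and 8 not called, beside 88 higher and 108 lower among 247 listed genes of that location. The 3 annotated to the plasma membrane all had a higher mean, LTP2 and AT2G44300 called and AT3G62860 not, beside 26 called higher and 30 called lower among 69 listed genes of that location. This grouping was chosen after the values were seen and was given no test. It rests on the wording of the location alone and can miss genes. FIB4, a fibrillin of plastoglobules that fell, was not among the 9 chloroplast genes.

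**Figure D5:**
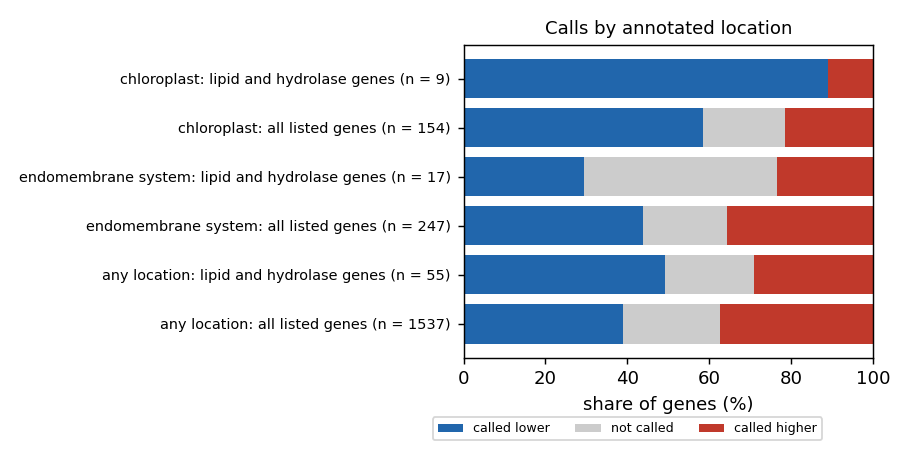
Share of genes called lower, not called and called higher in BIC1-YFP, in percent, by annotated location, for the lipid and hydrolase genes and for all listed genes. The 9 chloroplast-annotated lipid and hydrolase genes hold 8 called lower and 1 called higher; chloroplast genes of the whole list lean the same way.

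The 250 bases before each gene start were searched on both strands for 4 motifs, using the RefSeq annotation of TAIR10.1. The L1-box of epidermal genes (TAAATGCA or TAAATGTA) was found before 3 of the 55 genes (5.45%, against 4.49% of all 27443 nuclear protein-coding genes). The brassinosteroid response element (CGTGTG or CGTGCG) was found before 7 (12.7%, against 6.71% of all and 8.81% of listed genes), of which 4 fell, 1 rose and 2 were not called. The G-box (CACGTG) was found before 2 (3.64%, against 6.49% and, of listed genes, 10.0%) and the GCC-box (GCCGCC) before 1 (1.82%, against 1.87%). The G-box and the response element share the letters CGTG, so their matches can overlap. Of the genes with a match, ADS4 and AT4G36530 were called without any 1 library, and their upstream regions are shown with the match in capitals, read towards the gene. That of ADS4 is chr1:1936842-1937091 on the minus strand and holds an L1-box in reverse, and that of AT4G36530 is chr4:17242169-17242418 on the minus strand and holds CGTGTG.
ADS4: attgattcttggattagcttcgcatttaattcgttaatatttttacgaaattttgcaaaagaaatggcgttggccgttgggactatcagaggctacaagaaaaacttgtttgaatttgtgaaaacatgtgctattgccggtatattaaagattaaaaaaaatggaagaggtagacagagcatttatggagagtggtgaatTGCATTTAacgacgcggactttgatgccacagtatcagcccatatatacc
AT4G36530: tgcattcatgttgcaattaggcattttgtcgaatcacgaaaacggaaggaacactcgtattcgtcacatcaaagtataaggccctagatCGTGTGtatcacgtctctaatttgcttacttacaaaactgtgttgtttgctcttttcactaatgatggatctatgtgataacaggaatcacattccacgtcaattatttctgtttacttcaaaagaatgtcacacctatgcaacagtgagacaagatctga
A match is a description of these letters and no evidence of binding.

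Against a stricter count of tests the list shrank. The deposited p-values of 644 listed genes imply at least 21574 tests. These are the genes whose deposited log2 fold change was smaller in size than the log2 ratio of means. Over that number of tests limma called 2 of the 55 genes, AT4G23680 (higher, adjusted p = 0.021) and AT3G24460 (lower, adjusted p = 0.029), where 3.27% of all tested genes were called. Next were FAD8 (0.066), AT4G36530 (0.067), LTP2 (0.067) and PLA2A (0.086).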

How the data were processed

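For each of 1537 genes that the authors selected, the deposited table gives a normalized signal in every library, written with decimals, the mean of each genotype, and the authors' log2 fold change, p-value and adjusted p. Per the submitters' processing notes the build was TAIR10 and Cufflinks was used, with no version. The aligner, counter, scaling and test are not named there. The values are not whole reads, so no count model was used, and they are taken not to be divided by gene length. Columns were matched to samples by genotype and replicate number.

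Genotypes were compared with limma 3.58.1 (R 4.3.3) on log2(value + 1), with a variance trend and no covariate, over 1531 genes reaching 1 unit in 3 libraries or more, and p-values were adjusted over all of these. As the authors chose the genes for differing in these libraries, a call is no independent evidence. The p-values rest on 3 libraries per genotype and on variances that limma draws towards a trend over the 1531 genes. They do not measure a gene's own spread alone, and with depth unknown no counting interval is given.

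Genes given in full were, per role, the 4 called genes of largest change with separate genotypes and a higher mean of at least 20 units, the gene of highest mean, the 2 uncalled genes of smallest p, genes on the pathway lists, those called over 21574 tests, and near-identical neighbours. Other genes were added after their values were seen. The genes, roles and lists were chosen with earlier results of these data known. All 55 locus identifiers matched the RefSeq annotation of TAIR10.1, which gave symbols and sequences (Biopython 1.88), and identity is over a global alignment of the longest coding sequences. Alternatives were 2 pseudocounts, 2 filters, median-ratio scaling, no variance trend, a replicate block, a stricter number of tests, a minimum log2 fold change and each library left out. Leaving out replicate 3 of both genotypes was chosen after seeing the data.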

Additional observations from a re-analysis of the deposited data

How the results depend on the processing

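None of the 55 genes changed direction under any of the 16 alternatives in which it was tested, which the authors' selection in part fixes. The filters, the variance trend, the replicate block, the number of tests and the minimum log2 fold change leave each estimate unchanged. They could not turn a direction, and only the pseudocounts, median-ratio scaling and left-out libraries could. The counts of 16 higher and 27 lower genes stayed within 1.5 times under pseudocounts of 0.5 and 4, no filter, a minimum value of 10, median-ratio scaling, limma without trend, the replicate block, and replicate 3 of both genotypes left out. Adjusted over 21574 tests, 1 gene was called higher and 1 lower, 2 in all: 1 lipid transfer gene higher and 1 of the remaining lipid genes lower, with 0 in either direction among GDSL, fatty acid, lipase and oleosin genes, 0 hydrolases lower and 0 elongation genes higher. A minimum log2 fold change of 1 left 20 by construction, 7 higher and 13 lower: lipid transfer genes 3 and 3, fatty acid genes 1 and 1, GDSL genes 0 and 1, hydrolases 4 lower, elongation genes 0 and remaining lipid genes 1 lower. Over all tested genes the same rule left 507 of 1531 (33.1%), so 20 of 55 is near the share of the list. With median-ratio scaling or limma without trend, AT2G03140 and KCS19 lost their calls and AT5G24200 gained one, so the hydrolase count stayed at 8. Elongation genes called higher numbered 1 with median-ratio scaling, limma without trend, or replicate 3 of both genotypes left out; the last also left 1 fatty acid gene higher. A minimum value of 10 left 1 oleosin higher, since fewer genes were tested. Same-numbered libraries deviated together for replicates 1 (correlation 0.42) and 3 (0.44) but not for 2 (0.04). Wild-type replicate 1 and BIC1-YFP replicate 3 deviated oppositely (-0.43), as did wild-type replicate 3 and BIC1-YFP replicate 1 (-0.4). Deviations within a genotype sum to 0, so the value for replicate 2 cannot decide whether the numbers pair the samples. Pairing was not tested, and the main fit has no block. Under the replicate block all 12 hydrolases were called, 10 lower and 2 higher where none had been (AT3G24420 and AT3G62860, limma adjusted p of 0.015 and 0.016). In all, 9 calls were added without losing one.

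With 1 library left out at a time, 16 to 43 of the genes were called, 5 to 15 higher and 11 to 28 lower. The median log2 fold change, held near the edge of the gap that the authors' selection left around 0, ran from -0.62 to -0.53 and shows no stability. Of the 43 calls, 15 held in all 6 leave-outs and 28 did not. Over all listed genes 371 of 1173 calls held in all 6, so such losses are common to the whole list. Why the calls depend on some libraries more than on others was not tested. By role the ranges were GDSL genes 2 higher and 1 to 2 lower, hydrolases 0 to 1 higher and 3 to 9 lower, elongation genes 0 to 2 higher, fatty acid genes 1 to 3 higher and 2 to 3 lower, lipases 0 to 1 higher and 1 to 4 lower, lipid transfer genes 2 to 6 higher and 0 to 6 lower, oleosins 0 to 2 higher and 0 to 1 lower, and remaining lipid genes 3 to 4 lower. Read depth is unknown, so what it limits cannot be given.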

Other observations

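In the authors' deposited table, the log2 fold changes of all 55 genes had the sign of the ratio of the mean abundances. For 5 genes the deposited value was smaller in size than that ratio by more than 0.5. The deposited log2 fold change of the oleosin gene AT2G25890 was 0.64 in the authors' deposited table where the log2 ratio of means was 3.29. It was -0.76 for OLEO4 (AT3G27660) in the authors' deposited table beside a ratio of -2.49. For PLA2A (AT2G26560) it was -1.14 in the authors' deposited table beside -1.72, and for the Serinc gene AT3G24460 -1.64 beside -2.16. The fifth gene was AT4G12500, with a log2 ratio of means of -2.05.

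The smallest values in the table went with the replicate number. The lowest value above 0 was 0.00138 and 0.000558 in the wild-type and BIC1-YFP libraries numbered 1, 0.4 and 0.734 in the libraries numbered 2, and 0.0388 and 0.0385 in those numbered 3. Exact values of 0 stood in the libraries numbered 2 alone, for 27 and 11 listed genes. Whether libraries of the same number were scaled together was not tested.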
